A study of Mus musculus with 35 samples.

Results

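A set of 9 genes of B cells and of the lymphoid chemokine system were followed across suprarenal aortas of ApoE-/- mice given saline or angiotensin II. They were Ms4a1, Cd79a, Cd79b, Blk, Pax5 and Cr2, which mark B cells, and Cxcl13, Ccl19 and Ltb, which take part in placing lymphocytes in tissue. They were found by their gene name in the scanner files and made up 9 of the 27745 gene names on the array. They were read by 13 of the 41174 probes, of which 12 probes were well above background in the aorta channel on at least 3 arrays.

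As background, B cells recognise antigen through surface immunoglobulin coupled to the Cd79a and Cd79b signalling chains, and Pax5 is the transcription factor that holds them to the B lineage. Cxcl13 draws B cells through the receptor Cxcr5, Ccl19 draws T cells and dendritic cells through Ccr7, and membrane lymphotoxin, to which Ltb contributes the beta chain, acts through Ltbr on stromal cells that make these chemokines. Together they form follicles in lymph nodes, and similar aggregates can form in the adventitia of diseased arteries. Fat around the abdominal aorta also holds lymph nodes.

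All mice were male ApoE-/- and carried a subcutaneous osmotic minipump implanted at 12 to 14 weeks of age. The pump delivered saline, or angiotensin II (Ang II) at 1000 ng/kg/min, for 7, 14 or 28 days. Saline was held by 6, 6 and 5 aortas at these times and Ang II by 4, 5 and 6, and another 3 came from mice on Ang II for 7 days whose aorta had dissected. The whole suprarenal aorta was taken, 1 aorta per array, so values cover the wall with whatever tissue was attached to it, and each p-value rests on the spread among these samples.

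Each array held the aorta's RNA in the Cy5 channel and a universal mouse reference RNA in the Cy3 channel, labelled by a different chemistry and with no dye swap. A value is the log2 ratio of aorta to reference after loess normalization unless the text says otherwise. It is read as a difference between aortas, never as a level of one probe against another. Over the 35 arrays 45 to 84.8 percent of spots were well above background in the aorta channel and 54.5 to 71.9 percent in the reference channel. The smooth muscle genes Myh11, Acta2 and Tagln, which define the aortic wall, were well above background on all 35 arrays. Their values varied widely between aortas, from 3.44 to 6.19 for Myh11, from -0.30 to 5.05 for Acta2 and from -0.21 to 6.45 for Tagln. The part of wall content in the other differences was not tested. In whole tissue, fewer cells of a type and less RNA per cell cannot be told apart.

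The B cell genes were low in most aortas and high in a few, and the few lay in saline and Ang II groups alike. Cd79b, the beta chain of the B cell receptor complex, spanned 67.6-fold between the lowest and the highest of the 35 arrays, and Ms4a1, which encodes the surface protein CD20, spanned 82.4-fold. The 6 highest arrays for Cd79b were aortas 5 and 6 of Ang II at 28 days, aorta 6 of saline at 14 days, aorta 3 of saline at 28 days, aorta 3 of Ang II at 7 days and aorta 6 of saline at 7 days. Of these 6, 3 had received saline. The same 6 arrays were the highest for Ms4a1 and for Pax5.

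Cd79b read -2.80, -1.73 and -0.12 as the lowest, median and highest of the saline aortas at 7 days. At 14 days saline aortas read -2.98, -2.03 and 1.42. The saline aortas at 28 days read -2.85, -2.12, 0.80, -1.99 and -1.71. In each saline group most aortas lay near -2 and 1 or 2 stood well above the rest.

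With Ang II for 7 days Cd79b read -2.21, -2.53, 0.13 and -2.13, and in the dissected aortas -1.25, -1.27 and -0.95. After 14 days it read -2.77, -2.09, -2.05, -0.60 and -2.61. After 28 days the lowest was -2.72, the median -1.46 and the highest 3.1. All 7 groups overlapped. The highest group mean was Ang II at 28 days at -0.51 ± 2.40 (SD, n = 6) and the lowest Ang II at 14 days at -2.02 ± 0.86 (SD, n = 5), and no neighbours in the order of the 7 means differed by more than the larger of their SDs. The dissected aortas were the most alike, at -1.15 ± 0.18 (SD, n = 3).

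**Figure D1:**
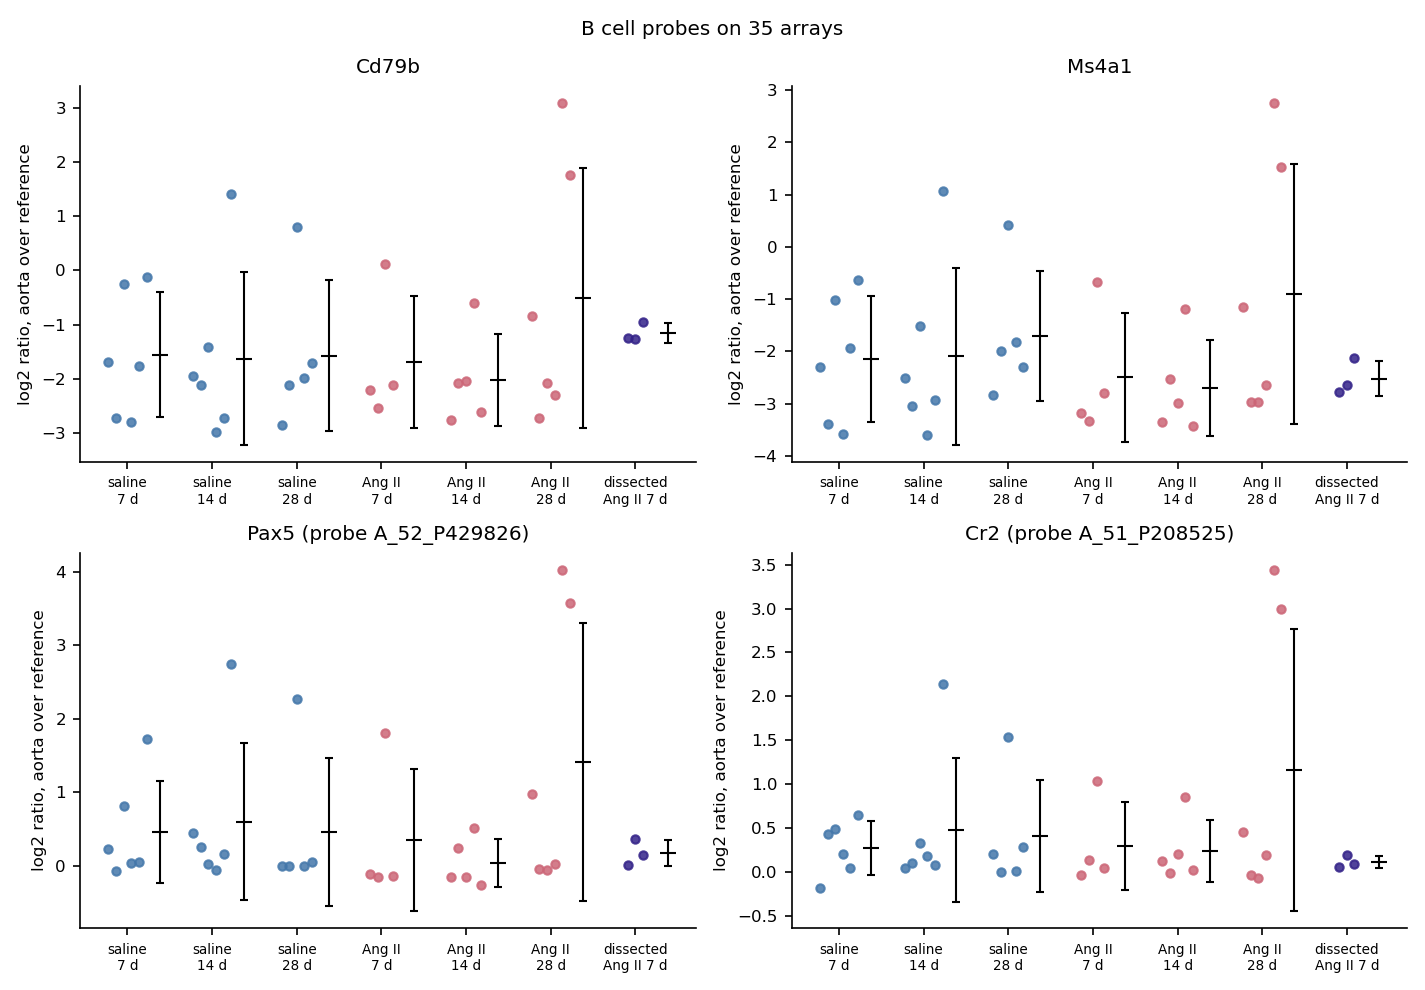
Log2 ratio of aorta to reference for probes of Cd79b, Ms4a1, Pax5 and Cr2 (vertical axes) in the 7 groups (horizontal axes). Each point is 1 aorta and the bars show the group mean ± SD. The same few aortas stand high in every panel, among them aortas 5 and 6 of Ang II at 28 days and aorta 6 of saline at 14 days.

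Ms4a1 followed the same arrays on both of its probes. On probe A_52_P483336 aortas 5 and 6 of Ang II at 28 days read 2.75 and 1.54, aorta 6 of saline at 14 days 1.06 and aorta 3 of saline at 28 days 0.42. The remaining arrays ran from -3.61 to -0.64. Probe A_51_P277683 placed 5 of the 6 arrays highest for Cd79b among its own 6 highest and spanned 43.9-fold.

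Pax5 was read by probe A_52_P429826 on 10 of 35 arrays above background. Aortas 5 and 6 of Ang II at 28 days read 4.03 and 3.57, aorta 6 of saline at 14 days 2.75, aorta 3 of saline at 28 days 2.27, aorta 3 of Ang II at 7 days 1.81 and aorta 6 of saline at 7 days 1.72. Every other array lay at or below 0.97. Its second probe, A_51_P122855, was above background on 0 arrays and spanned 1.64-fold.

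Sequences are shown of 5 probes near the detection limit, among them the Cr2 pair whose disagreement is described next. They are the probes of Cd79a, the alpha chain of the receptor complex, of Blk, a Src-family kinase of B cells, the silent probe of Pax5, and the pair for Cr2, the complement receptor CD21 of mature B cells and follicular dendritic cells. All letters are the 60 bases of the array's design in lower case. Positions are mm8, as the array files give them, and a stretch longer than 60 bases there crosses an intron. The Cd79a probe lies at chr7:24608094-24608351 on the plus strand, and the others lie on the minus strand, at chr14:62332606-62333743 for Blk, at chr4:44558582-44591136 for Pax5, and at chr1:196864079-196864138 and chr1:196841901-196841960 for Cr2.
Cd79a A_52_P651316: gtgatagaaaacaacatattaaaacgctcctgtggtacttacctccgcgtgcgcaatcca
Blk A_52_P15405: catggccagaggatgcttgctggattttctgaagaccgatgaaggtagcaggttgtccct
Pax5 A_51_P122855: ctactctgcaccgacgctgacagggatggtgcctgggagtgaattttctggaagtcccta
Cr2 A_52_P490788: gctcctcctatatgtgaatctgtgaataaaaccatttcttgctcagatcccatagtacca
Cr2 A_51_P208525: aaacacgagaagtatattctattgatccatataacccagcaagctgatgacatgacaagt

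The Cr2 probes disagreed. A_51_P208525 spanned 12.3-fold and read 3.44 and 2.99 in aortas 5 and 6 of Ang II at 28 days, 2.14 in aorta 6 of saline at 14 days, 1.53 in aorta 3 of saline at 28 days and 1.04 in aorta 3 of Ang II at 7 days. A_52_P490788, the brighter probe on average and so the one in the fit, spanned 1.78-fold and lay between -0.27 and 0.56 everywhere. Both were above background on 8 of 35 arrays, and 5 of the 6 arrays highest for Cd79b were also highest on the first and 2 on the second.

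Cd79a and Blk were mostly below detection. Cd79a was above background on 5 arrays and read 1.5 and 0.85 in aortas 5 and 6 of Ang II at 28 days, with 0.42 as the next value. Blk was above background on 4 arrays and read 1.26 and 0.99 in these aortas and 0.82 in aorta 6 of saline at 14 days. At 28 days 2 of 6 Ang II and 0 of 5 saline aortas were above background on each probe, which gives Cd79a at least 1.23-fold and Blk at least 1.21-fold higher with Ang II, neither past the test (limma adjusted p of 0.357 and 0.425). The bound sets the mean of the brighter group over all its aortas against the dim group's mean of, per array, the higher of the lowest signal among probes well above background and the probe's own. It rests on aorta 5 of Ang II, without which the fitted changes were 0.14 for Cd79a and 0.15 for Blk on the log2 scale.

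Ltb followed the B cell genes. In saline aortas the lowest, median and highest were -1.87, -0.88 and 0.72 at 7 days and -1.48, -1.08 and 2.70 at 14 days. At 28 days the saline aortas read -1.71, -1.45, 1.37, -1.53 and -1.61. The high values were aorta 6 at 7 and 14 days and aorta 3 at 28 days, as for Cd79b.

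With Ang II Ltb read -0.77, -1.15, 1.08 and -0.65 at 7 days and -1.27, -1.04, -0.94, 0.06 and -1.27 at 14 days. At 28 days the lowest, median and highest were -1.52, -0.31 and 3.01. The dissected aortas read 0.48, 0.14 and 0.78. They had the highest group mean, 0.47 ± 0.32 (SD, n = 3), within the range of the saline aortas at 7 days.

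Cxcl13 spread over 28.1-fold and was above background on 33 of 35 arrays, while its reference spot was above background on 9. The saline aortas had a lowest, median and highest of 1.01, 2.14 and 2.85 at 7 days and of 0.70, 2.79 and 4.43 at 14 days. At 28 days they read 1.49, 0.11, 3.31, 1.35 and 0.88. The spread among saline aortas alone thus covered most of the range seen in the series.

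With Ang II Cxcl13 read 2.20, 1.08, 3.42 and 1.27 at 7 days and 3.76, 2.55, 0.99, 2.10 and 1.57 at 14 days. At 28 days the lowest was 1.72, the median 2.75 and the highest 4.92, and aortas 5 and 6 again led. The dissected aortas read 0.43, 0.46 and 1.27, the lowest group mean at 0.72 ± 0.47 (SD, n = 3), with 1 of the 3 above background. The highest mean was 3.16 ± 1.47 (SD, n = 6) at 28 days of Ang II.

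**Figure D2:**
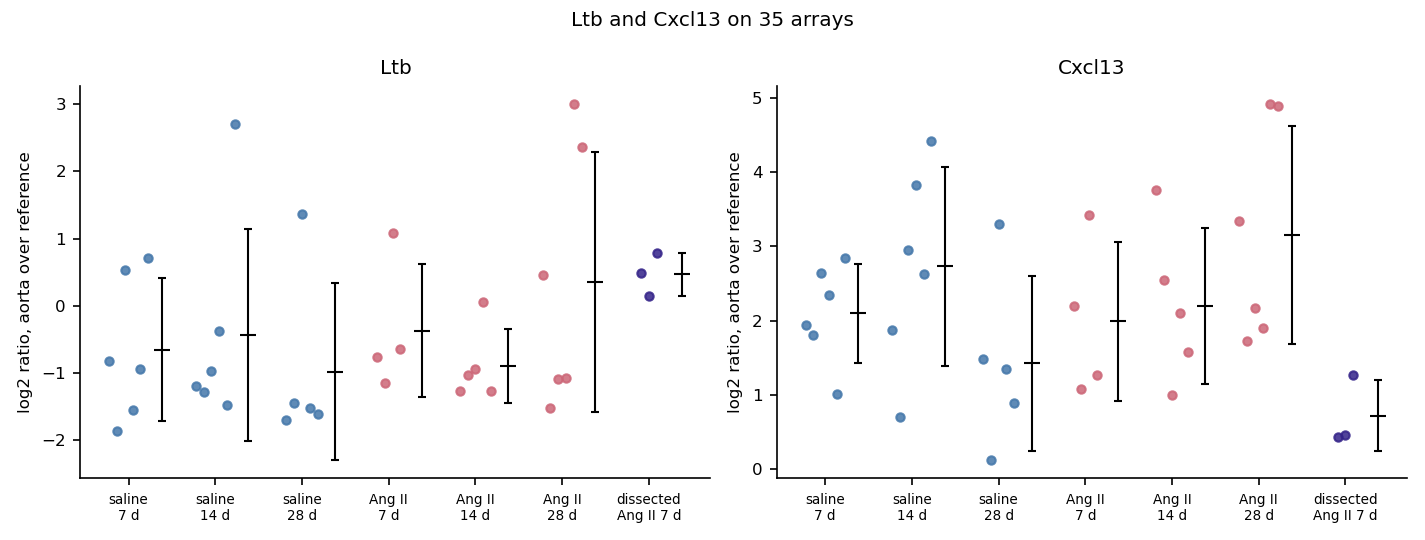
Log2 ratio of aorta to reference for Ltb and Cxcl13 (vertical axes) in the 7 groups (horizontal axes), with 1 point per aorta and the group mean ± SD. The dissected aortas have the highest mean for Ltb, 0.47, and the lowest for Cxcl13, 0.72.

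Ltb, Cxcl13 and Ccl19 are genes whose induction through NF-kB is textbook knowledge, so the 150 bases before their starts were searched for the letters GGGNNNNNCC on both strands, overlapping matches counted. Promoters came from RefSeq on GRCm38.p6, which held 6 of the 9 genes, and 11634 of 32851 windows of that length in the table, 35.4 percent, held a match. Capitals mark the matches, with overlapping ones run together. The Cxcl13 window is chr5:95956789-95956938 and the Ltb window chr17:35194357-35194506, both on the plus strand.
Cxcl13: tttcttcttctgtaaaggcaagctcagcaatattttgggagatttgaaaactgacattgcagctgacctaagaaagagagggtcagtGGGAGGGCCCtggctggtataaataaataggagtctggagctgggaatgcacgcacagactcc
Ltb: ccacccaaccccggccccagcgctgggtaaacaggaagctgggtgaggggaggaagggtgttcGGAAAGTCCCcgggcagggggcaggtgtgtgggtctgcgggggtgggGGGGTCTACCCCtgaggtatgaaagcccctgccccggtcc

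There were 2 matches in the Cxcl13 window, both strands of 1 stretch, and 5 in the Ltb window. The Ccl19 and Pax5 windows held 0, Cd79a 1 and Cr2 4. A match describes the letters in these windows and no binding was measured.

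Among single aortas, after the group means were removed, the members moved together to different degrees. Of 8 genes set against Cd79b over 35 arrays, Ms4a1 had a Pearson r of 0.987 (Spearman rho 0.955), Ltb of 0.958 (0.842) and Pax5 of 0.953 (0.856). Each had a permutation p of 1e-05 for both measures, the smallest that 100000 permutations can give, and an adjusted p of 2.667e-05. Without the 2 arrays farthest from the Cd79b median, aorta 5 of Ang II at 28 days and aorta 6 of saline at 14 days, r was still 0.98 for Ms4a1, 0.941 for Ltb and 0.926 for Pax5. The arrays were scanned on 2 days, and within the first and second day r was 0.986 and 0.989 for Ms4a1, 0.987 and 0.943 for Ltb, and 0.973 and 0.941 for Pax5.

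Cxcl13 followed Cd79b less tightly, with an r of 0.679 (permutation p 0.00028, adjusted 0.000448) and a rho of 0.553 (permutation p 0.00365, adjusted 0.00507). Its r was 0.589 without the 2 farthest arrays and 0.807 and 0.583 within the scan days. The relation was lost on the scanner software's own log ratio, where r was 0.0935 (permutation, adjusted p 0.584). Cd79a and Blk gave an r of 0.778 (permutation p 6e-05, adjusted 0.00012) and 0.775 (permutation p 0.00069, adjusted 0.00092), with rho at 0.561 (permutation p 0.0038, adjusted 0.00507) and 0.599 (permutation p 0.00158, adjusted 0.00316). Their r was 0.689 and 0.624 without the 2 farthest arrays, 0.649 and 0.744 within the first scan day and 0.879 and 0.798 within the second, although few of their values were above background.

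Ccl19 and the brighter Cr2 probe gave r of 0.265 (permutation p 0.137, adjusted 0.137) and 0.317 (permutation p 0.0922, adjusted 0.105). Their rho was 0.333 (permutation p 0.0664, adjusted 0.0758) and 0.229 (permutation p 0.222, adjusted 0.222). Without the 2 farthest arrays r was 0.207 and 0.283, and within the scan days 0.427 and 0.139 for Ccl19 and -0.0425 and 0.585 for Cr2.

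**Figure D3:**
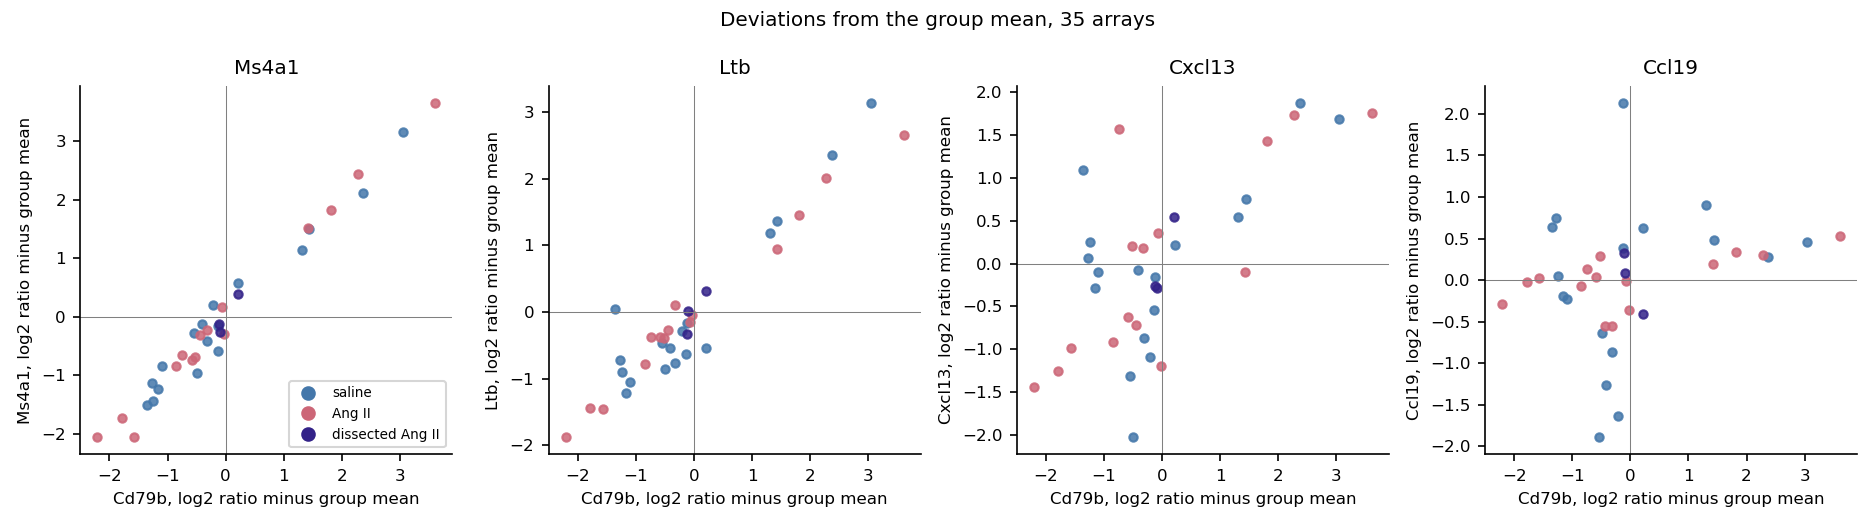
Deviation of each aorta from its group mean on the log2 scale for Ms4a1, Ltb, Cxcl13 and Ccl19 (vertical axes) against Cd79b (horizontal axes), 1 point per aorta, 35 in all. Ms4a1 and Ltb lie close to a line (r of 0.987 and 0.958), Cxcl13 scatters more (0.679) and Ccl19 most (0.265).

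Other lymphocyte genes outside the 9 peaked on the same arrays. Cxcr5, the receptor for Cxcl13, read 5.11 and 4.23 in aortas 5 and 6 of Ang II at 28 days and 3.44 in aorta 6 of saline at 14 days, against a median of 0.51 over all arrays. Ccr7, the receptor for Ccl19, read 3.78, 3.52 and 3.6 in these 3 aortas against a median of 0.40. For Cxcr5 and Ccr7 the 6 highest arrays were those of Cd79b.

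Ighm, the heavy chain of IgM, read 6.28, 5.84 and 5.39 in the same 3 aortas against a median of 4.03. Lta, the lymphotoxin chain that pairs with Ltb, was above background on 7 arrays and read 2.63, 1.35 and 1.94 there. None of these 4 genes passed the test in any comparison. At 28 days their changes were 1.24 for Cxcr5, 1.17 for Ccr7, 0.53 for Lta and 1.46 for Ighm, with adjusted p from 0.264 to 0.58 in limma.

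Markers of other cells moved with these arrays. The level of a list is the mean over its genes of the log2 ratio minus the gene's mean over the 35 arrays. For 17 T cell genes it was 1.81 in aorta 6 of saline at 14 days and 1.67 and 1.61 in aortas 5 and 6 of Ang II at 28 days, the 3 highest arrays, against a median of -0.16. For 11 genes of lymph node stroma, follicular dendritic cells and high endothelial venules the same 3 aortas led with 1.02, 1.07 and 1.01, against a median of -0.08, and for 12 plasma cell and immunoglobulin genes with 1.07, 1.94 and 1.09, against -0.14.

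Glycam1, a mucin of high endothelial venules in lymph nodes, chosen here after its values were seen, was above background on 11 of 35 arrays. It read 5.05 in aorta 3 of Ang II at 7 days, 5.02 and 4.86 in aortas 5 and 6 of Ang II at 28 days, 4.55 in aorta 6 of saline at 14 days, 4.42 in aorta 3 of saline at 28 days and 3.89 in aorta 6 of saline at 7 days. These were its 6 highest arrays, and they were the 6 highest for Cd79b. Madcam1, another marker of such venules, was above background on 7 arrays, and its highest value was 0.95 in aorta 6 of saline at 14 days.

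By group, the lymph node list ran from -0.74 to 0.32 with saline and from -0.08 to 0.84 with Ang II at 7 days. It ran from -0.35 to 1.02 and from -0.16 to 0.07 at 14 days, and from -0.93 to 0.58 and from -0.53 to 1.07 at 28 days. The dissected aortas lay between -0.43 and -0.11. The part of lymph node tissue in the high values was not tested.

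The genes whose deviations over the 35 arrays were most like the mean of the 6 B cell members were Fcer2a (r of 0.955), Bfsp2 (0.953), Tnfrsf13c (0.951), Btla (0.95), Il22ra2 (0.95), Pou2af1 (0.947), Ptprcap (0.946), Vpreb3 (0.945), Ccr6 (0.941) and Fcrla (0.937). For Ltb they were Spib (0.967), Tnfrsf13c (0.961), H2-Oa (0.96), Il4i1 (0.96) and Traf3ip3 (0.957). For Cxcl13 they included Cd55 (0.838), Nxpe2 (0.828), Timd4 (0.827) and Ms4a4b (0.815). Ccl19 had other companions, namely Ccl21c (0.923), Itga9 (0.922), C1qc (0.893), Serping1 (0.892) and Gpc3 (0.891).

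Against this spread no member differed between Ang II and saline at a single time on the log ratio. At 7 days 0 of 9 members passed an adjusted p of 0.05 (Benjamini-Hochberg over 18671 genes, limma), where 27.1 percent of all genes did, and 0 members had an unadjusted p under 0.05. Cd79b differed by -0.13 (95% CI -2.02 to 1.77), Ltb by 0.28 (-1.37 to 1.93) and Cxcl13 by -0.11 (-1.53 to 1.32). The median member change was -0.05, beside -0.00 for all genes. The intervals were wide beside the changes.

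At 14 days 0 of 9 members passed, against 2.4 percent of all genes, with 0 at an unadjusted p under 0.05. Cd79b differed by -0.40 (95% CI -2.17 to 1.38), Ltb by -0.46 (-2.01 to 1.09) and Cxcl13 by -0.54 (-1.88 to 0.80). Of the 9 changes 3 were above 0, with a median of -0.40 beside 0.00 for all genes.

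At 28 days all 9 members had a mean above that of saline, with a median difference of 0.89 beside 0.04 for all genes, and 0 of 9 passed the test, against 0.9 percent of all genes. Cxcl13 was nearest, at 1.73 (SE 0.66, 95% CI 0.39 to 3.07, unadjusted p 0.0129, limma adjusted p 0.199), and was the 1 member with an unadjusted p under 0.05. Ltb differed by 1.34 (95% CI -0.21 to 2.90) and Cd79b by 1.06 (-0.72 to 2.84). Much of this rested on aortas 5 and 6 of Ang II. Without them, in a fit added after the data were seen, Cxcl13 was at 0.86, Ltb at 0.18 and Cd79b at -0.41. They were left out for their high values, so a fall was fixed in advance. The high saline aorta 3, at 3.31 for Cxcl13, 1.37 for Ltb and 0.80 for Cd79b, was kept. This fit therefore cannot show whether the remaining aortas differed. Within the second scan day, which held 3 aortas of each group, among them the high Ang II aortas 5 and 6 and not the high saline aorta 3, Cxcl13, Ltb and Pax5 passed at 2.67, 3.05 and 2.53 (adjusted p of 0.0399, 0.0349 and 0.0492). Within the first day, with 2 saline and 3 Ang II aortas, Ltb was at -0.67 and Cd79b at -1.22.

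The effect of Ang II was not shown to differ among the 3 times for any member, with 0 of 9 past the test against 1.48 percent of all genes. Cxcl13 had the 1 unadjusted p under 0.05 (0.0483, limma adjusted p 0.24). Saline aortas likewise gave 0 of 9 among times, against 0.503 percent of all genes, with 0 at an unadjusted p under 0.05.

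In the dissected aortas 0 of 9 members passed against saline at 7 days, where 36.5 percent of all genes did, with 0 at an unadjusted p under 0.05. The sign was opposite for the chemokines, Ccl19 at 1.10 (95% CI -0.01 to 2.22, adjusted p 0.115) and Cxcl13 at -1.38 (-2.94 to 0.18, adjusted p 0.162), while Ltb was at 1.12 (-0.69 to 2.93). Cxcl13 passed when only the 2 groups were fitted (the same -1.38, limma adjusted p 0.0187) and on the scanner's log ratio (-1.66, adjusted p 0.0182). All 3 dissected aortas were scanned on the second day.

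Dissected and non-dissected Ang II aortas at 7 days gave 0 of 9 members, against 8.03 percent of all genes, with 0 at an unadjusted p under 0.05. Cxcl13 differed by -1.27 (95% CI -2.96 to 0.41), Ltb by 0.84 (-1.12 to 2.80) and Cd79b by 0.53 (-1.71 to 2.77).

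**Figure D4:**
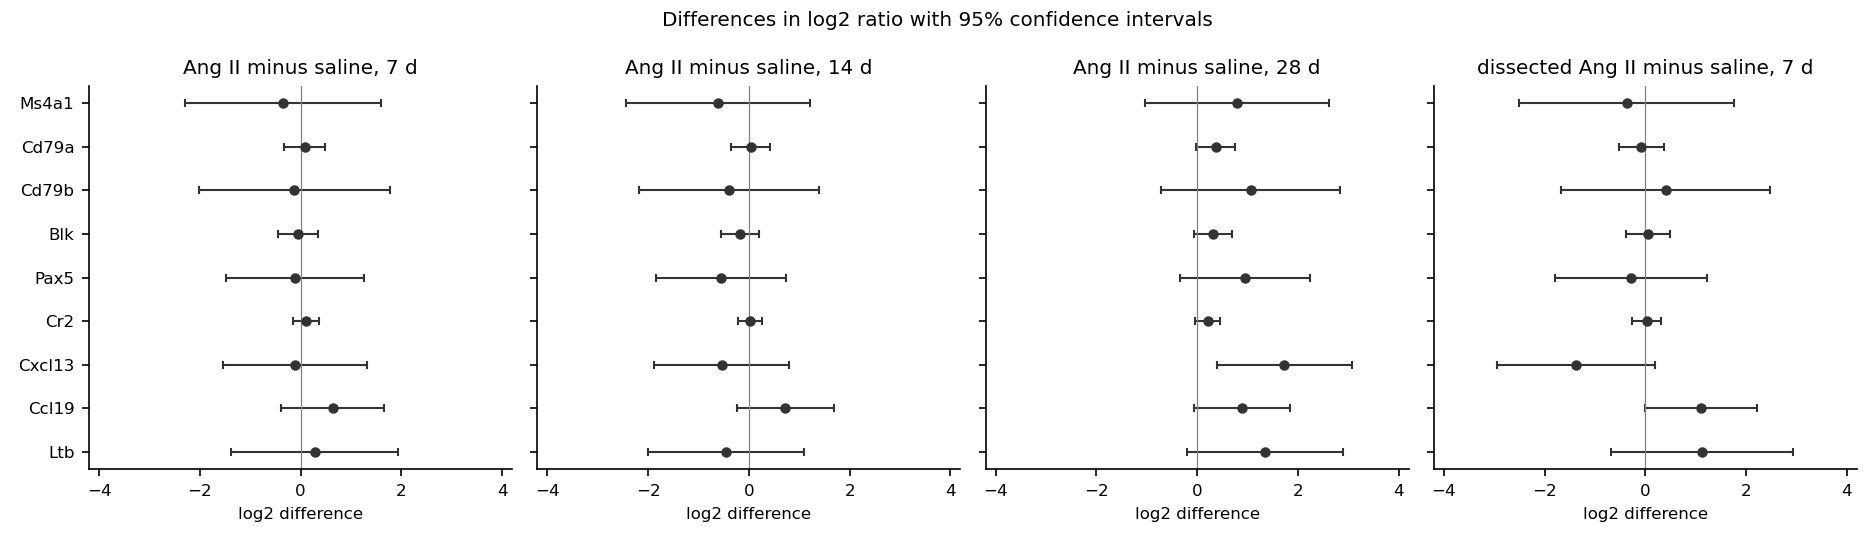
Difference in log2 ratio between Ang II and saline for the 9 genes at 7, 14 and 28 days, and between dissected Ang II and saline aortas at 7 days, with points for the estimates and bars for the 95% confidence intervals of the limma model. Of the intervals drawn, that of Cxcl13 at 28 days, from 0.39 to 3.07, is the only one clear of 0, and it missed the adjusted threshold.

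Ccl19 set itself apart. Its log ratios lay between 2.64 and 6.67, with saline aortas at a lowest, median and highest of 3.36, 5.20 and 5.89 at 7 days and of 4.24, 5.22 and 5.75 at 14 days. At 28 days saline aortas read 5.28, 2.64, 4.81, 3.27 and 6.67. Ang II aortas read 5.91, 5.55, 5.96 and 5.07 at 7 days, and dissected ones 6.17, 6.41 and 5.68. The saline values reached lower, but the ranges overlapped.

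At 14 days Ang II aortas read 5.97, 5.83, 5.47, 6.03 and 5.88, and at 28 days they ran from 4.88 through a median of 5.42 to 5.95. As the mean of the 3 times Ccl19 was higher with Ang II by 0.75 (SE 0.28, 95% CI 0.19 to 1.31, limma adjusted p 0.0421). It was the 1 of 9 members past the test there, where 27.2 percent of all genes passed. The call was lost without aorta 1, 2 or 3 of Ang II at 7 days, 1, 2, 4 or 5 at 14 days, or 5 or 6 at 28 days, and without saline aorta 2, 4 or 5 at 7 days, 1, 2 or 5 at 14 days, or 2 or 4 at 28 days. These 17 of 32 omissions are part of a range over all 32 of 0.59 to 0.93 with adjusted p from 0.00402 to 0.08. On the scanner's log ratio the difference was 0.08 (adjusted p 0.783).

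The 3 arrays lowest for Ccl19, aortas 2 and 4 of saline at 28 days and aorta 5 of saline at 7 days, had the narrowest spread of log ratios over all genes, with an SD of 0.85, 0.818 and 0.998. They were also lowest in the level of 6 endothelial genes, at -1.57, -2.27 and -1.49 against a median of 0.06. Without aortas 2 and 4 of saline at 28 days, in a fit added after the data were seen, Ccl19 differed by 0.40 (limma adjusted p 0.193) as the mean of the 3 times. The part of these array properties in the difference was not tested.

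The channels of Ccl19, examined separately after these data were seen, gave a larger difference than their ratio. The aorta channel's signal above local background, in fluorescence units on probe A_51_P458258, ran from 3003 through a median of 3655 to 5399.6 in saline aortas at 7 days. With Ang II it was 19906, 24033, 32198 and 8959, and in dissected aortas 12453, 15345.0 and 5162. In these units, which are not adjusted for the brightness of an array, no Ang II aorta overlapped the saline range, and 1 dissected aorta did. The reference signals of the saline and Ang II arrays, given below, did not overlap either.

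At 14 days the aorta channel of Ccl19 ran from 1809 through 6242 to 39038 with saline and read 22386, 8212, 15846, 29427 and 17773 with Ang II. Aorta 6 of saline, one of those high for B cell genes, was the highest of all. At 28 days it read 2758, 2975, 6448, 5424 and 4261 with saline and ran from 8124 through 12245 to 27715 with Ang II. The groups did not overlap at 28 days in these units, which are not adjusted for the brightness of an array.

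After normalization between arrays the aorta channel alone put Ccl19 at 7 days 2.53 higher on the log2 scale with Ang II, 5.77-fold (SE 0.56, 95% CI 1.38 to 3.67, limma adjusted p 0.00138), where 28.1 percent of all genes passed. As the mean of the 3 times it was 1.91 higher, 3.75-fold (SE 0.31, adjusted p 3.47e-05), where 27.8 percent passed. In the dissected aortas it was 2.07 higher than with saline, 4.21-fold (SE 0.61, adjusted p 0.00853), where 36.1 percent passed. It was the 1 member called in each of these, and its aorta channel signal was higher in all 3. Its reference channel was also higher on Ang II arrays, as described below.

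At 14 days the normalized aorta channel of Ccl19 differed by 1.41 (SE 0.53, limma adjusted p 0.152), where 1.9 percent of genes passed. Over 11 omissions of single arrays this ran from 1.00 to 1.88 (adjusted p 0.0246 to 0.361), and it passed only without aorta 6 of saline. At 28 days it differed by 1.78 (SE 0.53, adjusted p 0.0999), where 0.873 percent passed. The effect was not shown to differ among times (unadjusted p 0.349), where 1.76 percent of genes passed. Dissected and non-dissected aortas differed by -0.46 (95% CI -1.81 to 0.90, adjusted p 0.768), where 6.96 percent passed. Leaving out single arrays kept the 7 day difference between 2.32 and 2.82 (adjusted p 0.000798 to 0.00839).

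Within the first scan day the difference in the aorta channel was 1.96 at 7 days (limma adjusted p 0.143) and 1.70 as the mean of times (0.0402). Within the second it was 2.17 as the mean of times (0.00418), with 1 Ang II aorta at 7 days that is assumed to vary like the other groups. The second probe, A_51_P458262, gave 2.77 at 7 days (adjusted p 0.00242), 1.92 as the mean of times (0.00021) and 2.47 for dissected against saline (0.00734). The mouse genome carries near-identical copies of Ccl19, so the probes may read more than one of them.

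The reference channel, meant to hold the same RNA on every array, was not level for Ccl19. Its signal above background was 82.5 to 344.3 with a median of 226 in saline arrays at 7 days. With Ang II at that time it was 1140.2, 1420.3, 717 and 824, and on the arrays of dissected aortas 631, 520 and 438. The Ang II arrays lay above every saline array at 7 days, as their aorta channels did.

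At 14 days the Ccl19 reference signal ran from 163 to 1682 with saline and from 480.4 to 927 with Ang II, and the 1682 was on the array of saline aorta 6, whose aorta channel was brightest. After normalization the reference signal of Ccl19 spanned 10.5-fold over the 35 arrays, more than 99.5 percent of genes, where the median gene spanned 1.37-fold and Cd79b 1.42-fold. Across arrays the normalized channels of Ccl19 had an r of 0.733, and those of Ltb, whose reference spanned 1.94-fold, 0.813, a description of points that share an array. A rise of the reference with the aorta makes their ratio smaller by construction.

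Tested alone, the reference channel of Ccl19 was higher on Ang II arrays by 1.16 as the mean of the 3 times (SE 0.23, limma adjusted p 0.0293), where 0.129 percent of genes passed. At 7 days it was 1.89 higher (SE 0.42, adjusted p 0.0783), where 0.102 percent passed. Why the reference signal of Ccl19 differed between arrays was not tested. The other members had reference signals with smaller spans, the next being Cxcl13 at 4.43-fold near background, and none of them passed there.

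**Figure D5:**
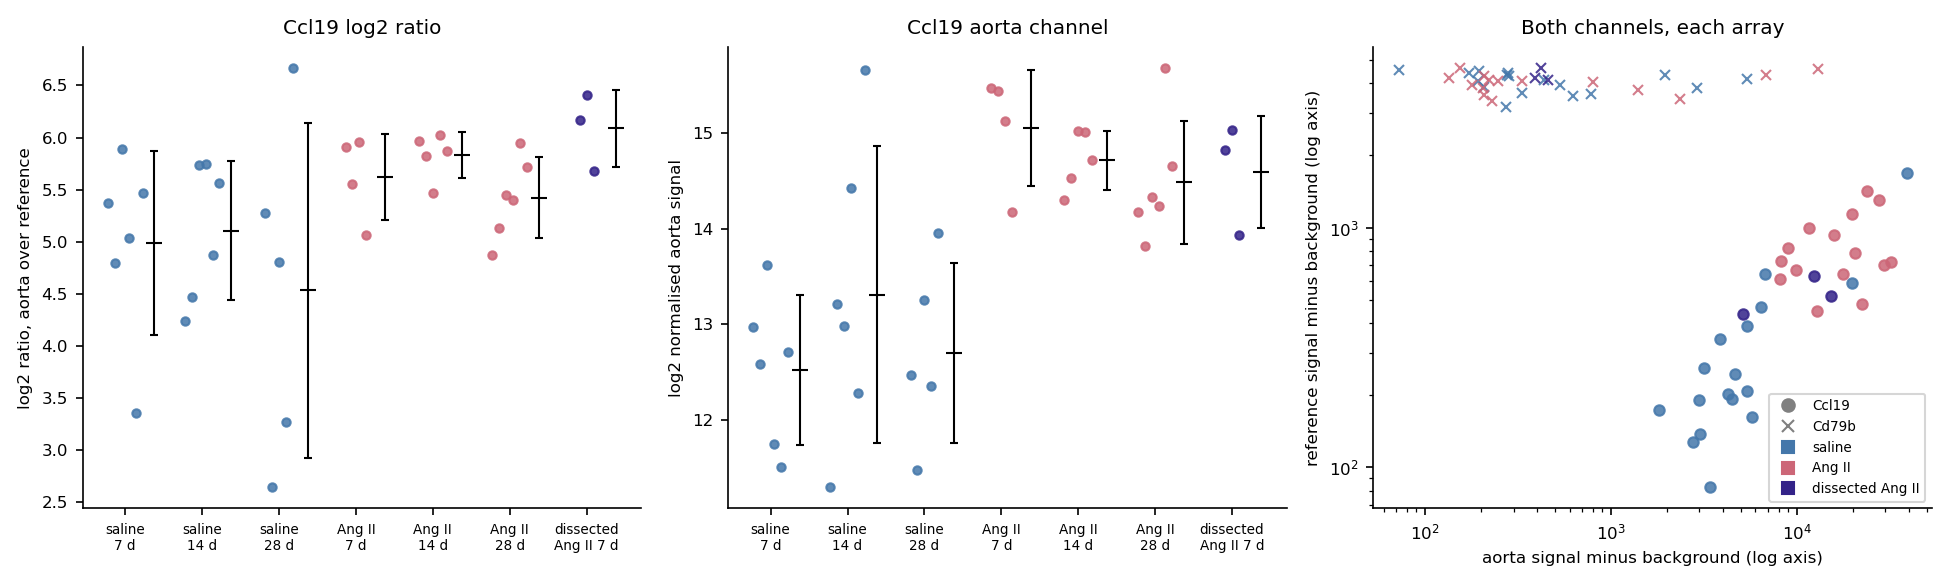
Ccl19 by group as the log2 ratio (first panel) and as the normalized log2 aorta signal (second panel), with 1 point per aorta and the mean ± SD, and its reference signal against its aorta signal above background on log axes in fluorescence units (last panel), with Cd79b as crosses. The Ang II groups separate from saline more in the second panel than in the first, and the reference signal climbs with the aorta signal for Ccl19 but stays between 3192 and 4627 for Cd79b.

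Other genes of the same pathways were read from lists. In a list of 20 tested genes of the lymphoid chemokine, lymphotoxin and receptor system, 6 rose and 0 fell at 7 days of Ang II, a list median of 0.34 beside -0.00 for all genes, where 14.5 percent of all genes rose. Tnfsf13b, the B cell survival factor BAFF, rose by 1.29 (SE 0.24, adjusted p 0.000325), and Tnfsf14, the ligand LIGHT that also binds Ltbr, by 1.24. The others were S1pr2, Map3k14, the kinase of the noncanonical NF-kB pathway, Ltbr at 0.83 (SE 0.17, adjusted p 0.000663) and Tnfsf13, the factor APRIL. Their range was 0.68 to 1.29.

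Tnfsf13b was the 1 gene of this list past the test at 14 days, at 0.84 (adjusted p 0.0435), and at 28 days, at 1.13 (adjusted p 0.0104), where 1.12 and 0.836 percent of all genes rose. As the mean of the 3 times 6 of 20 rose, against 15.6 percent, among them Ccl21c, a chemokine that shares the receptor Ccr7 with Ccl19, at 0.62 (adjusted p 0.0321), and Ltbr at 0.49 (adjusted p 0.000248). In dissected aortas 7 of 20 rose against saline, where 18.9 percent of all genes did, led by Tnfsf14 at 2.42 and Tnfsf13 at 1.33, with Nfkb2 at 1.15. Cxcr4, the receptor for Cxcl12, was 1.56 higher in dissected than in non-dissected aortas (adjusted p 0.0445), where 3.06 percent rose.

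In a list of 22 further genes of the B cell receptor, surface and transcription factors, 3 rose at 7 days, where 14.5 percent of all genes did, and 0 fell. They were Blnk, a receptor adaptor, at 1.43, Cd72, an inhibitory co-receptor, at 1.26, and Dok3, an adaptor, at 1.25, and the list median was 0.04. At 14 days 0 of 22 passed, where 2.4 percent of all genes did, with a median of -0.20. At 28 days Cd38 alone passed, at 1.5 (SE 0.34, limma adjusted p 0.0224), with a median of 0.76, where 0.836 percent of all genes rose.

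In dissected aortas 6 of the 22 rose, where 18.9 percent of all genes did, namely Dok3 at 2.17, Btk at 1.74, Tnfrsf13b at 1.64, Blnk at 1.61, Cd37 at 1.08 and Cd180 at 1.05, with a list median of -0.03. Most of these 6 are also made by myeloid cells, as are Cd72 and Cd38, and Cd79b and Ms4a1 did not pass. In the list of 9 macrophage markers 8 rose at 7 days and 9 in dissected aortas, with medians of 1.93 and 2.23, where 14.5 and 18.9 percent of all genes rose. The part of macrophages in the B cell list's calls was not tested.

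Among 17 T cell genes, 2 rose at 7 days, where 14.5 percent of all genes did, Thy1 at 1.14 and Cd8b1 at 0.89. At 28 days 1 rose, Il7r at 2.61 (limma adjusted p 0.0171), where 0.836 percent of all genes did. At 14 days 0 rose, where 1.12 percent of all genes did. Il7r, the receptor for interleukin 7, read 1.42, 1.36, 2.81, 2.69, 4.51 and 5.15 in the Ang II aortas at 28 days, in order of number. The saline aortas at that time read 0.17, 0.02, 1.21, 0.14 and 0.38, some of them below background. The Ang II and saline values of Il7r did not overlap there. Of 12 plasma cell genes Sdc1 alone rose at 7 days, by 1.46, where 14.5 percent of all genes rose. Epithelial and stromal cells also make Sdc1. At 14 and 28 days 0 of the 12 passed, where 2.4 and 0.9 percent of all genes did. In dissected aortas against saline 1 of the 12 rose, Sdc1 by 1.03 (limma adjusted p 0.0158), and 1 fell, Xbp1 by 0.96, with a list median of 0.22, where 36.5 percent of all genes changed. Xbp1 also fell by 1.18 against non-dissected aortas.

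Of 11 lymph node genes, Il33, an alarmin of stromal and endothelial cells, rose at each time, by 2.80, 1.17 and 1.23 at 7, 14 and 28 days, and by 2.41 in dissected aortas. Mfge8 and Pdpn rose at 7 days by 1.44 and 0.76, so that 3 of 11 rose at that time, where 14.5 percent of all genes did, with a list median of -0.01. Lyve1, of lymphatic endothelium and some macrophages, fell by 2.51 in dissected against non-dissected aortas at 7 days (limma adjusted p 0.0477).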

How the data were processed

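RNA of 35 aortas was measured on two-colour Agilent arrays. In the deposited scanner files, written by Feature Extraction (Agilent, version 9.5.3.1) as the submitters' processing notes state, each spot has a fluorescence intensity and a local background in both channels. Per the file headers, the log10 ratio of red to green beside them is the scanner program's own. A deposited value table for the series is on the log2 scale, with slopes of 3.32 to 3.34 on that log10 ratio and array medians from -0.0675 to 0.109, so direction and base are known and any further centring is not stated. Aorta RNA was in Cy5 per the labels.

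Mean intensity was corrected against the local median background by normexp (offset 50), and log2 ratios were normalized by loess within arrays, with control and outlier spots at weight 0. The tools were limma 3.58.1 and statmod 1.5.0 under R 4.3.3. Spots of a probe were averaged, and the brightest probe passing a filter (aorta channel well above background on 3 arrays) stood for a gene, which left 18671 genes. A single limma model of the 7 groups covered all arrays, and calls required a Benjamini-Hochberg adjusted p below 0.05. For the fit, 24375 of the 41174 probes took their gene symbol from a RefSeq table through their transcript accession. The rest took the gene name of the array's design, with older symbols updated from the RefSeq table. Co-variation used residuals from group means and 100000 permutations within groups.

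The members, gene lists and tests were chosen with earlier results of these data known. Named genes were all members, the 2 called genes with the largest change in each direction per list and comparison, Cxcr5, Ccr7, Ltbr, Lta and Ighm, the genes most correlated with the members, and Acta2, Myh11 and Tagln. Some genes under this rule are not reported here. Other genes of the lists were named after their values were seen.

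Analysis of the channels apart, after loess and Aquantile normalization, was added after the data were seen. Alternatives were other normalizations, filters, array weights, scan day, slide, replicate block, probes and single arrays left out. The fit was tested on simulated data made from these arrays for the 28 day comparison over 18671 genes. It recovered 77 percent of 100 genes changed by 1 on the log2 scale and 97 percent of 100 changed by 2, with 12 false calls. The changed genes were drawn at random from all tested genes, and the noise was normal with equal spread in all groups. These shares therefore do not hold for members as widely spread as Cd79b, whose SD in Ang II at 28 days was 2.40. The number of arrays limits the precision.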

Additional observations from a re-analysis of the deposited data

Results flagged for a closer look

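Within the groups of 4 to 6 aortas, 78 sets of values (13 probes in 6 groups) were tested for a single value far from the rest. Dixon's criterion was used, which chance meets in about 1 in 20 groups, and 20 values met it. The sets share arrays and hold genes that move together, so they are not independent and this count cannot be set directly against that rate. No explanation was tested for any of them. Groups of 3 were not tested, and in Ang II at 28 days 2 aortas stood high together, which this criterion does not mark.

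Aorta 6 of saline at 14 days stood above the other saline aortas of that time on most probes. It read 1.42 for Cd79b, where the others ran from -2.98 to -1.41, and 1.16 for Ms4a1 on probe A_51_P277683. Its value was 2.75 for Pax5 on A_52_P429826 and 0.32 on A_51_P122855, which is below background on every array. It was 2.14 for Cr2 on A_51_P208525, 0.82 for Blk and 2.70 for Ltb, where the others ran from -1.48 to -0.38.

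Aorta 3 of saline at 28 days read 2.27 for Pax5 on A_52_P429826, where the others ran from -0.01 to 0.05. It read 1.53 for Cr2 on A_51_P208525, 1.37 for Ltb and 0.21 for Cd79a. Aorta 3 of Ang II at 7 days read 0.13 for Cd79b, where the others ran from -2.53 to -2.13, 1.81 for Pax5 on A_52_P429826 and 1.04 for Cr2 on A_51_P208525.

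Aorta 4 of Ang II at 14 days, the array with the largest share of spots above background, read 0.85 for Cr2 on A_51_P208525, 0.42 for Cd79a and 0.06 for Ltb, where the others ran from -1.27 to -0.94. The remaining values lay near background, with -0.14 and -0.40 for Pax5 on A_51_P122855 in aorta 1 of saline at 7 days and aorta 1 of Ang II at 14 days, and 0.35 for Cr2 on A_52_P490788 in aorta 1 of Ang II at 7 days.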

How the results depend on the processing

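Of 1578 recomputed member changes, 1491 kept their call and, where uncalled, moved by less than the spread between replicates, 26 lost and 10 gained significance and 51 moved by more than that spread, and 0 called values turned sign. The sign differed in 145 of the 1578, in 14 of them where the reported change exceeded its SE. The count of members called as the mean of the 3 times, 1 (Ccl19), was 0 without aortas 5 and 6 of Ang II at 28 days, without aortas 2 and 4 of saline at 28 days, with array weights, without a filter, after scale normalization, on the scanner's log ratio, on the series table and within each scan day, and was 0 to 1 with single arrays left out. In these fits Ccl19 changed by 0.68, 0.40, 0.59, 0.75, 0.29, 0.08, 0.08, 0.82 and 0.82. At 28 days 3 members instead of 0 were called within scan day 2. At 7 days 1 (Ccl19) was called in the aorta channel alone.

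For dissected aortas against saline 1 instead of 0 was called in the aorta channel alone (Ccl19, 2.07), with array weights (Ccl19, 1.05), with the other probe (Ccl19, 1.76), with only these groups fitted (Cxcl13, -1.38), and on the scanner's log ratio and the series table (Cxcl13, -1.66 on both). Among saline times 1 (Ccl19) was called after scale normalization (adjusted p 0.0272). The correlation of Cxcl13 with Cd79b was 0.0935 on the scanner's log ratio and on the series table, and that of Ccl19 with Cd79b was 0.543 in the aorta channel alone (permutation, adjusted p 0.00232), or 0.337 without the 2 farthest arrays. The cause of these differences was not tested.

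With the replicate block the counts were 1 member as the mean of times and 0 in every other comparison, as without it. Numbers in the titles are not stated to pair aortas. Over 91 pairs of arrays with the same number the mean correlation was 0.0718, and 38 were over 0.1. Over 430 pairs with different numbers it was -0.0156, and 142 were over 0.1. The ranges overlapped widely, from -0.397 to 0.664 and from -0.679 to 0.717, so these values do not settle whether numbers pair aortas. Over all genes the block moved the saline comparison among times from 94 to 0 calls and the interaction from 277 to 151. Signals near background limit Cd79a, Blk, Cr2, Pax5 and the Cxcl13 reference spot, whose ratios are compressed.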

Other observations

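Dendritic cell and MHC class II genes gave calls in some comparisons where the B cell members did not. MHC class II presents antigen to T helper cells and is shared by B cells, dendritic cells and macrophages. Of 10 genes of dendritic cells and MHC class II, 7 rose and 0 fell with Ang II as the mean of the 3 times, with a list median of 0.85 beside 0.00 for all genes, where 15.6 percent of all genes rose (limma). Itgax, an integrin of dendritic cells and macrophages, rose by 1.39 (SE 0.18, adjusted p 2.18e-06), H2-Aa, an MHC class II alpha chain, by 1.34 (SE 0.30, adjusted p 0.00132) and Cd74, the invariant chain, by 1.20 (SE 0.24, adjusted p 0.000331). At 28 days 2 of the 10 rose, H2-Aa by 2.19 and Itgax by 1.82, where 0.836 percent of all genes rose. At 7 days 3 of the 10 rose, where 14.5 percent of all genes did. They were Itgax, Cd74 and Ciita, the class II transactivator, at 1.63, 1.30 and 1.28. At 14 days 0 of the 10 passed, where 2.4 percent of all genes did. Dissected against non-dissected aortas gave 0 of 10, where 8.03 percent of all genes passed.

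The list's level was also highest in aortas 5 and 6 of Ang II at 28 days and aorta 6 of saline at 14 days, at 1.54, 1.12 and 0.98, against a median of 0.08. In the dissected aortas 2 of the 10 genes rose against saline and 1 fell, where 36.5 percent of all genes changed. Itgax and H2-Ab1 rose by 1.95 and 1.06, while Zbtb46, a transcription factor of conventional dendritic cells, fell by 0.90.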
